A study of Mus musculus with 18 samples.

Results

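The genes described here were 10 transcripts of the interleukin-1 (IL-1), TNF and inflammasome system of macrophages: Il1a, Il1b, Il1rn, Il18, Nlrp3, Casp1, Pycard, Tnf, Il6 and Il10. They were chosen by name from the 24421 gene symbols of a bulk RNA-seq series of synovial macrophages from the mouse joint. All 10 were among the 10550 genes with enough counts to be tested. The series held 18 libraries in 6 groups of 3. LYVE1+CX3CR1+, MHCII+CD11c- and MHCII+CD11c+ macrophages were sorted from the synovium of WT C57BL/6 mice (C57BL/6J background per the study), either untreated or 8 h after an i.v. injection of immune complexes (IC) made of ovalbumin and rabbit polyclonal anti-ovalbumin IgG. All mice carried the same genotype, the sample labels gave no age, and they name no vehicle injection for the untreated mice. Per the study, each untreated library pooled the cells of several mice, and its text does not say this of the IC libraries. The study digested the synovium with collagenase before the sort.

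IL-1β and IL-1α are cytokines that act on the same receptor, and the protein of Il1rn, the IL-1 receptor antagonist, occupies that receptor without triggering it. IL-1β and IL-18 are made as inactive precursors. They are cut by caspase-1, the protein of Casp1, inside the inflammasome, a complex that the sensor NLRP3 builds with the adaptor ASC, the protein of Pycard. TNF and IL-6 are inflammatory cytokines made under NF-κB, IL-10 is an anti-inflammatory cytokine, and in the joint IL-1, TNF and IL-6 are targets of arthritis treatment. Transcript counts say nothing of the cleavage or release of these proteins.

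The promoters of the genes that the results turn on are shown first, to place the transcripts in the genome. The windows run from 250 bases before to 50 bases after a start position of the gene (GRCm38.p6), read 5′ to 3′ on the gene's strand. Distances below count from that position, which for Il1b lies inside the RefSeq bounds of the gene given further on. The table of promoters held 12 windows for 9 of the 10 genes, and Il10 was not among them. Il1b and Il1rn are shown because they passed the test after IC, and Tnf and Il6 because they differed between subsets. For Il1rn, the outermost of 3 windows is shown. They lie at chr2:129371090-129371389 (minus strand, Il1b), chr2:24336610-24336909 (plus strand, Il1rn), chr17:35201958-35202257 (minus strand, Tnf) and chr5:30012864-30013163 (plus strand, Il6). Capitals mark matches, on either strand, to TATAAA of the basal promoter, the AP-1 motif TGANTCA, the C/EBP motif TTGCNNAA, the cyclic AMP response element TGACGTCA or the κB consensus, and no marked matches overlap.
Il1b: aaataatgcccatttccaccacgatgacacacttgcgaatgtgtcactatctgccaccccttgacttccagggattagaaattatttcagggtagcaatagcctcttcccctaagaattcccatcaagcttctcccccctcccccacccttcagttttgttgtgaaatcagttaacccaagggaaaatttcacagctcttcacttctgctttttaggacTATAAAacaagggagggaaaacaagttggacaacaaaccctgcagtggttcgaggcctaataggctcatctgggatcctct
Il1rn: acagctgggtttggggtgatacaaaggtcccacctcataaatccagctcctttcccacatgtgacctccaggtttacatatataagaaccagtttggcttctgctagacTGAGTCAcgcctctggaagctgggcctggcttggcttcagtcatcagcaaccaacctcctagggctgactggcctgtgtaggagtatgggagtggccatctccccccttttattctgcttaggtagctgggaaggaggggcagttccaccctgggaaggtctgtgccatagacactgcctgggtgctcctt
Tnf: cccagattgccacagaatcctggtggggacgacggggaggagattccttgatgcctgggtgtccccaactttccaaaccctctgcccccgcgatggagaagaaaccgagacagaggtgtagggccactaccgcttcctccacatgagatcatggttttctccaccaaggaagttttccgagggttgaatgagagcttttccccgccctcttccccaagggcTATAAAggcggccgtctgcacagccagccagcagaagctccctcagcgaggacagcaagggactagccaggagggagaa
Il6: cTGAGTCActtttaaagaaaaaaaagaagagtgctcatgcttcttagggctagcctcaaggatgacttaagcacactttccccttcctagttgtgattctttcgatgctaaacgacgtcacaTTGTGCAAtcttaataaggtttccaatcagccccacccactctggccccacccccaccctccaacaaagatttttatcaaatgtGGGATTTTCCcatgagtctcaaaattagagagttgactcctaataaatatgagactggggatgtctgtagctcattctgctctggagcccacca

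TATAAA stood 31 bases before this start position in Il1b and 29 bases before it in Tnf, and 13.6% of the 32851 promoter windows of this length hold TATAAA. The Il6 window held a κB consensus 44 bases before the start (8.5% of windows), a C/EBP motif 128 bases before it (10.8%) and an AP-1 motif 249 bases before it (7.8%). The Il1rn window held an AP-1 motif 141 bases before the start. TGACGTCA, held by 1.8% of windows, was in none of the 12 windows of these genes. A match is a string of letters and not a measured binding site.

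The genes themselves lie on 7 chromosomes of GRCm38 (RefSeq). Il1rn (chr2:24336860-24351491), Il1a (chr2:129299609-129310186) and Il1b (chr2:129364569-129371164) share chromosome 2. Casp1 (chr9:5298517-5307281) and Il18 (chr9:50554700-50581841) share chromosome 9. Il10 lies at chr1:131019845-131024970, Il6 at chr5:30013114-30019975, Pycard at chr7:127991373-127993867, Nlrp3 at chr11:59541569-59566955 and Tnf at chr17:35199367-35202007. Il1b overlaps the antisense transcript Il1bos, which had 10 counts over all libraries. Il18 overlaps Bco2, which had 167. Il1a overlaps Gm14023, which had 19, and Pycard overlaps a predicted transcript not analysed here. Whether the counting used the strand is not given in the sources used here, so such overlaps leave the counts of Il18, and much less those of Il1b and Il1a, uncertain.

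Totals lay between 245903 and 2172358 counts per library. Levels are given as CPM, the share of a gene in the counts of its library, scaled by the TMM method so that libraries can be compared, and in the smallest library 3 counts stood for 11.3 CPM. The second MHCII+CD11c- IC library was the smallest, its mean correlation with the other libraries of its group was the lowest of the 18 (0.763 over 10550 genes, against 0.801 to 0.956 for the other 17). It also had the lowest Csf1r of its group (746 CPM, against 2068 and 2202 in the other 2 libraries of the group), so results that rest on it are given with and without it. Its Lyve1 was the lowest of its group too (516 CPM, against 1841 and 2290). On that gene, however, it lay nearer to the untreated libraries of its subset (702 to 882 CPM) than the other 2 did. Macrophage markers were high in every library and summed to between 7630 and 18264 CPM. The sort genes matched the gates in direction, with H2-Aa at 2.69 to 6.85 CPM in LYVE1+CX3CR1+ libraries and at 1386 or more in all others, and Itgax, the CD11c gene, at 240 CPM or more in MHCII+CD11c+ libraries and at 70.6 or less elsewhere. Genes of the gates also differed between treatments within a sort. In MHCII+CD11c- libraries Itgax was at 2.33 to 13.3 CPM untreated and 31.0 to 70.6 CPM after IC (2.75, edgeR adjusted p = 0.0261), and H2-Aa was lower after IC by -0.84 (edgeR adjusted p = 0.00212). Lyve1 was at 329 to 439 CPM in untreated and 1001 to 1232 CPM in treated MHCII+CD11c+ libraries (1.54, edgeR adjusted p = 0.00881). In MHCII+CD11c- libraries Lyve1 was at 702 to 882 CPM untreated, and at 1841, 516 and 2290 CPM after IC. LYVE1+CX3CR1+ libraries were at 2171 to 3555 CPM, so the third treated MHCII+CD11c- library lay within their range. The part of these differences in the IC results was not tested. Per the study the gate of LYVE1+CX3CR1+ cells left out Ly6C+ cells. Neutrophil markers were present in the sorts, with 12 genes summing to 921 to 4544 CPM in MHCII+CD11c- libraries, 129 to 2507 in MHCII+CD11c+ libraries and 18.9 to 183 in LYVE1+CX3CR1+ libraries.

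Levels per kilobase of annotated exon give a rough scale for comparing genes. On it Tnf ranked first of the 10 in untreated LYVE1+CX3CR1+ (116 CPM per kb) and untreated MHCII+CD11c- macrophages (115 CPM per kb). In untreated MHCII+CD11c+ macrophages Il1b came first (176 CPM per kb) and Tnf next (66.2 CPM per kb). After IC, Il1b led in MHCII+CD11c- (242 CPM per kb) and MHCII+CD11c+ macrophages (286 CPM per kb), and Tnf still led in LYVE1+CX3CR1+ macrophages (161 CPM per kb), where Il1b was next (43.6 CPM per kb). Il1a, Il18 and Il10 had group means of at most 16.8 CPM per kb. The length counts every annotated exon of a gene, which can exceed the length of its main transcript. For Pycard it was 3800 bases, longer than the RefSeq bounds of the gene. Pycard may therefore be placed too low, and the ranks against it are uncertain.

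**Figure D1:**
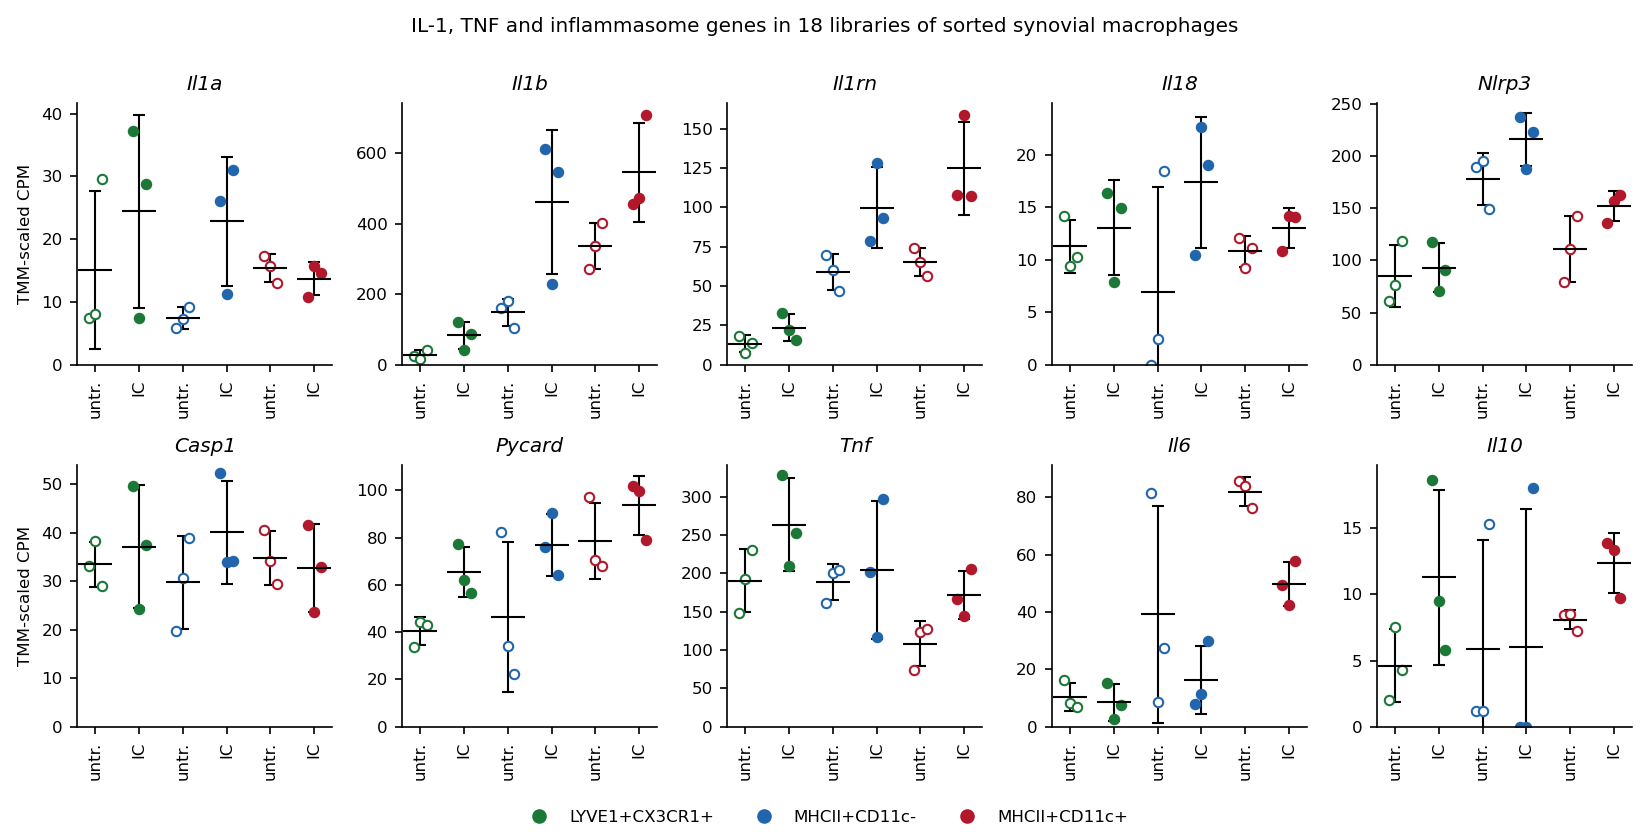
TMM-scaled CPM of each of the 10 genes (vertical axis, linear, from 0) in the 18 libraries, by subset (colour) and treatment (open circles untreated, filled circles IC), with the mean and SD of the 3 libraries as black lines. Il1b and Il1rn are lowest in the LYVE1+CX3CR1+ subset in both treatments, while Casp1 lies between 19.8 and 52.3 CPM in every library.

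Il1b, the gene of IL-1β, differed most between the subsets. In untreated mice it was at 23.6, 15 and 42.0 CPM in the LYVE1+CX3CR1+ libraries, at 159, 179.7 and 105 CPM in the MHCII+CD11c- libraries and at 270.0, 335 and 401 CPM in the MHCII+CD11c+ libraries. The 3 subsets did not overlap, and they stood in this order. LYVE1+CX3CR1+ macrophages were lower than MHCII+CD11c- macrophages by a log2 fold change of -2.43 (SE 0.38, edgeR adjusted p = 7.30e-05) and lower than MHCII+CD11c+ macrophages by -3.62 (SE 0.37, edgeR adjusted p = 4.61e-08). MHCII+CD11c+ macrophages were above MHCII+CD11c- macrophages by 1.18 (SE 0.33, edgeR adjusted p = 0.0448). In fits that left out 1 library that last call was kept only without the first MHCII+CD11c+ library (1.32, edgeR adjusted p = 0.0422), the others gave values between 0.99 and 1.35, and DESeq2 gave it an adjusted p of 0.107.

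After IC, Il1b was at 119.5, 42.7 and 87.4 CPM in LYVE1+CX3CR1+ libraries, at 612, 229.7 and 545 CPM in MHCII+CD11c- libraries and at 457, 472 and 707 CPM in MHCII+CD11c+ libraries. The LYVE1+CX3CR1+ libraries again lay below all the others, and the MHCII+ subsets overlapped. The log2 fold change of LYVE1+CX3CR1+ against MHCII+CD11c- macrophages was -2.50 (SE 0.34, edgeR adjusted p = 1.48e-05), and against MHCII+CD11c+ macrophages -2.72 (SE 0.34, edgeR adjusted p = 1.28e-06). Between the MHCII+ subsets it was 0.22 (95% interval -0.44 to 0.88, edgeR adjusted p = 0.806).

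Il1rn, the gene of the receptor antagonist, had the same order of LYVE1+CX3CR1+ macrophages against the rest. Without treatment it was at 18.2, 7.52 and 14.0 CPM in LYVE1+CX3CR1+, 69.8, 59.9 and 47.0 CPM in MHCII+CD11c- and 74.1, 65.1 and 56.4 CPM in MHCII+CD11c+ libraries. The LYVE1+CX3CR1+ libraries lay apart and the MHCII+ subsets overlapped. The log2 fold change of LYVE1+CX3CR1+ macrophages was -2.15 against MHCII+CD11c- (SE 0.32, edgeR adjusted p = 5.05e-05) and -2.30 against MHCII+CD11c+ macrophages (SE 0.31, edgeR adjusted p = 3.18e-06). After IC these values were -2.06 (SE 0.31, edgeR adjusted p = 4.49e-05) and -2.41 (SE 0.29, edgeR adjusted p = 6.99e-07). Between the MHCII+ subsets Il1rn differed by 0.15 untreated (95% interval -0.43 to 0.73) and 0.35 after IC (95% interval -0.24 to 0.94), with neither past the threshold.

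Over the 18 libraries, log2 CPM of Il1b and Il1rn had a Pearson correlation of 0.903, which describes libraries that share subsets and treatments. The log2 ratio of Il1b to Il1rn, with 0.5 added to each count, was 0.97 ± 0.60 (SD, n = 3) in untreated LYVE1+CX3CR1+, 1.30 ± 0.23 in untreated MHCII+CD11c- and 2.35 ± 0.48 in untreated MHCII+CD11c+ macrophages. After IC it was 1.75 ± 0.76, 2.11 ± 1.12 and 2.12 ± 0.58 in the same order. The ratio was above 0 in every library, so Il1b counts exceeded those of its antagonist everywhere, on a scale not divided by length.

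Il1a and Il18 were low. Il1a, the gene of IL-1α, was at 7.41, 8.15 and 29.6 CPM in untreated LYVE1+CX3CR1+, at 5.81 to 9.19 CPM in untreated MHCII+CD11c- and at 13 to 17.3 CPM in untreated MHCII+CD11c+ libraries. No subset comparison of Il1a passed the test in either treatment. Il18 was at 9.40 to 14.2 CPM in untreated LYVE1+CX3CR1+ and 9.20 to 12.1 CPM in untreated MHCII+CD11c+ libraries. In the untreated MHCII+CD11c- libraries it had 0, 2 and 18 counts (0, 2.44 and 18.4 CPM), and 0 counts in that library allows up to 3.49 CPM when 3 counts are taken as the limit. Without the third of these libraries Il18 was higher in LYVE1+CX3CR1+ than in MHCII+CD11c- macrophages by 3.15 (edgeR adjusted p = 0.0178), against 0.63 (edgeR adjusted p = 0.648) with it.

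Among the inflammasome genes, Nlrp3 differed between subsets, Pycard in 1 comparison and Casp1 in none. Nlrp3, the sensor, was at 61.3, 76.5 and 118 CPM in untreated LYVE1+CX3CR1+, 189.5, 196 and 149 CPM in untreated MHCII+CD11c- and 79.3, 111 and 142 CPM in untreated MHCII+CD11c+ libraries. The MHCII+CD11c- libraries lay above both other subsets. LYVE1+CX3CR1+ macrophages were lower than MHCII+CD11c- macrophages by -1.05 (SE 0.24, edgeR adjusted p = 0.00398) without treatment and by -1.23 (SE 0.24, edgeR adjusted p = 0.00125) after IC. Against MHCII+CD11c+ macrophages the values were -0.37 (SE 0.24, edgeR adjusted p = 0.312) untreated and -0.72 (SE 0.24, edgeR adjusted p = 0.0315) after IC, and the latter was kept without the first library of either group alone. Without the second LYVE1+CX3CR1+ IC library it was -0.52 (edgeR adjusted p = 0.214), without the third -0.70 (edgeR adjusted p = 0.0893), and without the second or the third MHCII+CD11c+ IC library -0.66 (edgeR adjusted p = 0.108) or -0.62 (edgeR adjusted p = 0.131). Between the MHCII+ subsets Nlrp3 was lower in MHCII+CD11c+ macrophages by -0.68 untreated (edgeR adjusted p = 0.119) and -0.51 after IC (edgeR adjusted p = 0.305), neither past the threshold, although the libraries did not overlap.

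Pycard, the gene of the adaptor ASC, was at 33.7, 44.5 and 43.1 CPM in untreated LYVE1+CX3CR1+ libraries and at 97.2, 70.3 and 68.0 CPM in untreated MHCII+CD11c+ libraries, which did not overlap. The log2 fold change was -0.95 (SE 0.30, edgeR adjusted p = 0.0198), and the call was lost without the first MHCII+CD11c+ library (-0.77, edgeR adjusted p = 0.115) and without the first (-0.84, edgeR adjusted p = 0.0942) or the third (-0.99, edgeR adjusted p = 0.0507) LYVE1+CX3CR1+ library. The untreated MHCII+CD11c- libraries spread over 82.6, 34.2 and 22.5 CPM. Without the first of them Pycard was higher in MHCII+CD11c+ than in MHCII+CD11c- macrophages by 1.48 (edgeR adjusted p = 0.0030), against 0.77 (edgeR adjusted p = 0.198) with it. Casp1, the protease, had untreated means of 33.4 ± 4.60, 29.7 ± 9.56 and 34.7 ± 5.54 CPM (SD, n = 3) in LYVE1+CX3CR1+, MHCII+CD11c- and MHCII+CD11c+ macrophages. Its subset differences lay between -0.30 and 0.21 in the 6 comparisons, with 95% intervals that lay within -1.03 and 0.88.

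Tnf had another order. In untreated mice it was at 148, 192 and 230.4 CPM in LYVE1+CX3CR1+, 162, 200.5 and 204 CPM in MHCII+CD11c- and 74.1, 124 and 127 CPM in MHCII+CD11c+ libraries. The MHCII+CD11c+ libraries were the lowest and overlapped with neither other subset. LYVE1+CX3CR1+ macrophages were above MHCII+CD11c+ macrophages by 0.81 (SE 0.25, edgeR adjusted p = 0.0196). This call was lost without the third LYVE1+CX3CR1+ library (0.66, edgeR adjusted p = 0.12) or the first MHCII+CD11c+ library (0.60, edgeR adjusted p = 0.132). LYVE1+CX3CR1+ and MHCII+CD11c- macrophages differed by 0.01 (95% interval -0.51 to 0.53). After IC the difference from MHCII+CD11c+ macrophages was 0.61 (95% interval 0.09 to 1.12, edgeR adjusted p = 0.0923), which passed with no filter on low counts (edgeR adjusted p = 0.0141), with only the compared libraries (0.0126), with 1 surrogate variable (0.0415) and with a replicate block within treatment (0.0205).

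The group mean of Il6 was lowest in LYVE1+CX3CR1+ and highest in MHCII+CD11c+ macrophages in each treatment, and not every step of this order passed the test. It was at 16.2, 8.15 and 7.0 CPM in untreated LYVE1+CX3CR1+ and at 85.6, 84.1 and 76.2 CPM in untreated MHCII+CD11c+ libraries. The log2 fold change was -2.98 (SE 0.52, edgeR adjusted p = 1.06e-04) untreated and -2.56 (SE 0.54, edgeR adjusted p = 9.57e-04) after IC, and both calls were kept in all 6 fits that left out a library. Untreated MHCII+CD11c- libraries were at 81.4, 8.56 and 27.6 CPM, the lowest of which lay within the LYVE1+CX3CR1+ range. LYVE1+CX3CR1+ macrophages were lower by -1.92 (SE 0.55, edgeR adjusted p = 0.0215), a value that fell to -0.84 (edgeR adjusted p = 0.454) without the first MHCII+CD11c- library. The call was also lost without the second (-1.77, edgeR adjusted p = 0.0878) or the third (-1.68, edgeR adjusted p = 0.109) LYVE1+CX3CR1+ library. Without the first MHCII+CD11c- library Il6 was higher in MHCII+CD11c+ than in MHCII+CD11c- macrophages by 2.13 (edgeR adjusted p = 0.0173), against 1.06 (edgeR adjusted p = 0.262) with it. After IC, LYVE1+CX3CR1+ against MHCII+CD11c- macrophages gave -1.21 (edgeR adjusted p = 0.265), with overlapping libraries. MHCII+CD11c+ against MHCII+CD11c- macrophages gave 1.35 after IC (edgeR adjusted p = 0.249).

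Il10 stayed under 20 CPM in all libraries. It was at 2.02 to 7.52 CPM in untreated LYVE1+CX3CR1+ and at 7.23 to 8.55 CPM in untreated MHCII+CD11c+ libraries. In MHCII+CD11c- macrophages it had 1, 1 and 15 counts untreated and 0, 0 and 18 counts after IC, and 0 counts in the second IC library allows up to 11.3 CPM. Differences in Il10 were not detectable at this depth, and none of the 13 comparisons passed by edgeR, at an adjusted or an unadjusted p under 0.05.

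Counted over the 10 genes, 4 were lower in untreated LYVE1+CX3CR1+ than in MHCII+CD11c- macrophages and none was higher, where 11.4% of all genes tested passed the test and 7.12% were lower. The libraries did not overlap for 3 of the 10 genes, beside 28.9% of all genes. Against untreated MHCII+CD11c+ macrophages, 4 were lower and Tnf was higher, where 21.8% of all genes passed, 12.4% lower and 9.48% higher, and 5 did not overlap, beside 41.3%. MHCII+CD11c+ differed from MHCII+CD11c- macrophages in Il1b alone, where 3.49% passed and 1.89% were higher, and 4 did not overlap, beside 22.3%. After IC, 3 genes were lower in LYVE1+CX3CR1+ than in MHCII+CD11c- macrophages, where 9.77% of all genes passed and 6.45% were lower, and 3 did not overlap, beside 25.1%. Against MHCII+CD11c+ macrophages 4 were lower, where 19.7% passed and 11.5% were lower, and 6 did not overlap, beside 38.0%. MHCII+CD11c+ and MHCII+CD11c- macrophages differed in 0 genes after IC by edgeR and 0 by DESeq2 (2.84% of all genes by edgeR), with 2 at an unadjusted p under 0.05, beside 15.6%, and 2 without overlap, beside 16.8%. The median log2 fold change of the 10 genes was -0.29 for untreated LYVE1+CX3CR1+ cells against the MHCII+CD11c- subset. Against the MHCII+CD11c+ subset it was -0.58, beside -0.02 over all genes tested in each. Comparisons between subsets share libraries, so these counts are not independent of one another.

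**Figure D2:**
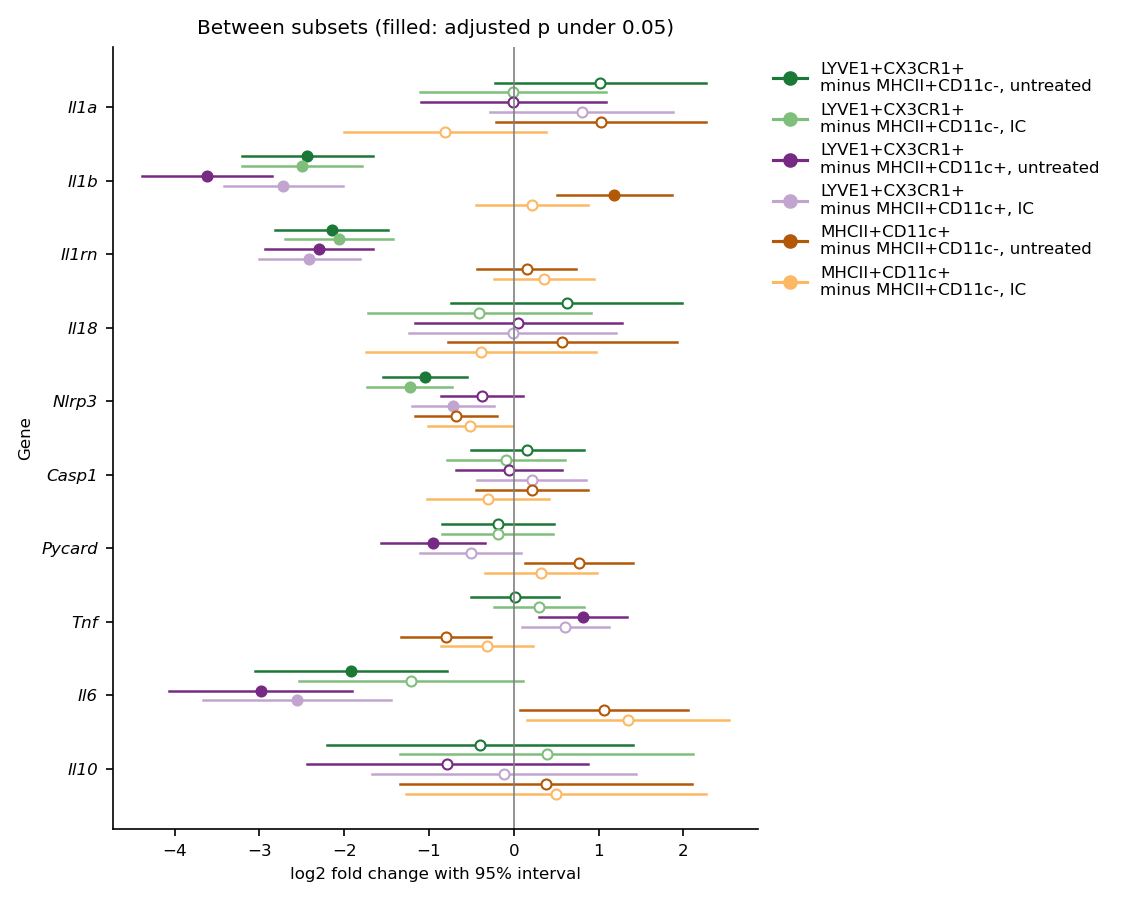
Log2 fold change between subsets (horizontal axis) for each gene (vertical axis), with the 95% interval of the edgeR fit as a line. Colours give the 6 comparisons and filled points have an adjusted p under 0.05. Il1b and Il1rn lie left of -2 in all comparisons of LYVE1+CX3CR1+ with MHCII+ macrophages, and Casp1 lies near 0.

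Il1b was higher in libraries after IC than in untreated ones of the same subset. In LYVE1+CX3CR1+ macrophages its mean was 26.9 ± 13.8 CPM untreated and 83.2 ± 38.6 CPM after IC (SD, n = 3). In MHCII+CD11c- macrophages it was 148 ± 38.5 CPM untreated and 462 ± 204 CPM after IC. The treated and untreated libraries did not overlap in either subset, although in LYVE1+CX3CR1+ macrophages the highest untreated library (42.0 CPM) lay just under the lowest treated one (42.7 CPM). The log2 fold changes were 1.61 (SE 0.37, edgeR adjusted p = 0.0452) and 1.67 (SE 0.34, edgeR adjusted p = 0.0121). In MHCII+CD11c+ macrophages the mean went from 335 ± 65.4 to 545 ± 141 CPM, also without overlap, and the log2 fold change was 0.71 (95% interval 0.06 to 1.35, edgeR adjusted p = 0.468; without the low-count filter it was 0.0163).

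Of the 10 genes, Il1b alone passed the test within LYVE1+CX3CR1+ macrophages (0.464% of all genes tested passed and 0.246% were higher) and within MHCII+CD11c- macrophages (1.06% and 0.550%). Within MHCII+CD11c+ macrophages 0 passed by edgeR and 0 by DESeq2, where 0.673% of all genes passed by edgeR, with 3 of the 10 at an unadjusted p under 0.05, beside 9.48%. Leaving out a library kept the Il1b call in 2 of 6 fits for LYVE1+CX3CR1+ macrophages. It was lost without the first (1.27, edgeR adjusted p = 0.425) or the third (1.57, edgeR adjusted p = 0.0937) IC library and without the first (1.52, edgeR adjusted p = 0.230) or the second (1.33, edgeR adjusted p = 0.300) untreated one. For MHCII+CD11c- macrophages it was kept in 4 of 6 fits and lost without the first IC library (1.45, edgeR adjusted p = 0.0708) or the third untreated one (1.47, edgeR adjusted p = 0.0744). Without the shallow second IC library it was 1.96 (edgeR adjusted p = 0.0011).

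Averaged over the 3 subsets with equal weight, Il1b was higher after IC by 1.33 (SE 0.20, edgeR adjusted p = 1.16e-04) and Il1rn by 0.83 (SE 0.17, edgeR adjusted p = 0.00374). These 2 were the members past the threshold, where 6.21% of all genes tested passed (3.12% higher). Each call was kept in all 18 fits that left out a library, with Il1b between 1.21 and 1.49 and Il1rn between 0.73 and 0.92. Il1rn went from 13.2 ± 5.38 to 23.6 ± 8.52 CPM in LYVE1+CX3CR1+, from 58.9 ± 11.4 to 99.9 ± 25.5 CPM in MHCII+CD11c- and from 65.2 ± 8.83 to 125 ± 29.6 CPM in MHCII+CD11c+ macrophages. Its treated libraries, at 32.7, 22.1 and 15.8 CPM, overlapped with the untreated ones in LYVE1+CX3CR1+ macrophages, and in the MHCII+ subsets the libraries did not overlap. The subset's own log2 fold changes of Il1rn were 0.82, 0.74 and 0.94, with edgeR adjusted p values of 0.412, 0.236 and 0.127, the last of which was 0.028 without the low-count filter and 0.027 when only the compared libraries were fitted.

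The cytokine Tnf had a mean change of 0.44 (SE 0.15, 95% interval 0.14 to 0.74, edgeR adjusted p = 0.0763). It was at 329, 209.8 and 252 CPM in treated LYVE1+CX3CR1+, 201, 117 and 296 CPM in treated MHCII+CD11c- and 167, 144 and 206 CPM in treated MHCII+CD11c+ libraries. Only in the MHCII+CD11c+ subset did the treated libraries lie apart from the untreated ones, and there the value was 0.67 (edgeR adjusted p = 0.329). Without the shallow second MHCII+CD11c- IC library, which gave the 117 CPM from 31 counts, the mean change was 0.52 (edgeR adjusted p = 0.0116). It also passed without the low-count filter (0.45, edgeR adjusted p = 0.00601) and with 1 surrogate variable (0.47, edgeR adjusted p = 0.0227). Within LYVE1+CX3CR1+ macrophages the Tnf value was 0.47 (95% interval -0.04 to 0.97, edgeR adjusted p = 0.627). The study singled out Tnf and Il1b, among other genes, in IC-treated LYVE1+CX3CR1+ macrophages of these same libraries, so their direction here is not independent evidence. For IL-1β the study also used a neutralizing antibody and Il1b deletion, which these counts do not cover.

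Among the inflammasome genes Pycard had a mean change of 0.54 (SE 0.18, edgeR adjusted p = 0.0724), which was 0.77 (edgeR adjusted p = 0.0019) without the first untreated MHCII+CD11c- library. It also passed without the low-count filter (0.55, edgeR adjusted p = 0.017) and with a replicate block on the title's number (0.56, edgeR adjusted p = 0.0379). In MHCII+CD11c- macrophages alone that library took Pycard from 1.39 (edgeR adjusted p = 0.0307) without it to 0.69 (edgeR adjusted p = 0.348) with it. In LYVE1+CX3CR1+ macrophages Pycard was at 77.3, 62.2 and 56.7 CPM after IC, above the 3 untreated libraries. Nlrp3 had a mean change of 0.29 (95% interval 0.01 to 0.57, edgeR adjusted p = 0.248) and Casp1 of 0.15 (95% interval -0.24 to 0.53, edgeR adjusted p = 0.747).

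Il6 was the member with a negative mean change, of -0.66 (SE 0.32, edgeR adjusted p = 0.262). In MHCII+CD11c+ macrophages it was at 49.4, 42.5 and 57.9 CPM after IC, below the untreated 76.2 to 85.6 CPM, with a log2 fold change of -0.71 (95% interval -1.66 to 0.24, edgeR adjusted p = 0.709). Il1a had a mean change of 0.75 (edgeR adjusted p = 0.199). Its treated MHCII+CD11c- libraries, at 26.1, 11.3 and 31.0 CPM, lay above the untreated ones, with the 11.3 CPM resting on 3 counts, and without the third untreated LYVE1+CX3CR1+ library the mean change was 1.06 (edgeR adjusted p = 0.0478). Il18 had a mean change of 0.58 (edgeR adjusted p = 0.425), which rose to 1.41 (edgeR adjusted p = 0.0243) without the third untreated MHCII+CD11c- library. In MHCII+CD11c- macrophages alone that library took Il18 from 3.75 (edgeR adjusted p = 0.0438) without it to 1.25 (edgeR adjusted p = 0.434) with it. Il10 had a mean change of 0.77 (95% interval -0.21 to 1.76, edgeR adjusted p = 0.412).

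**Figure D3:**
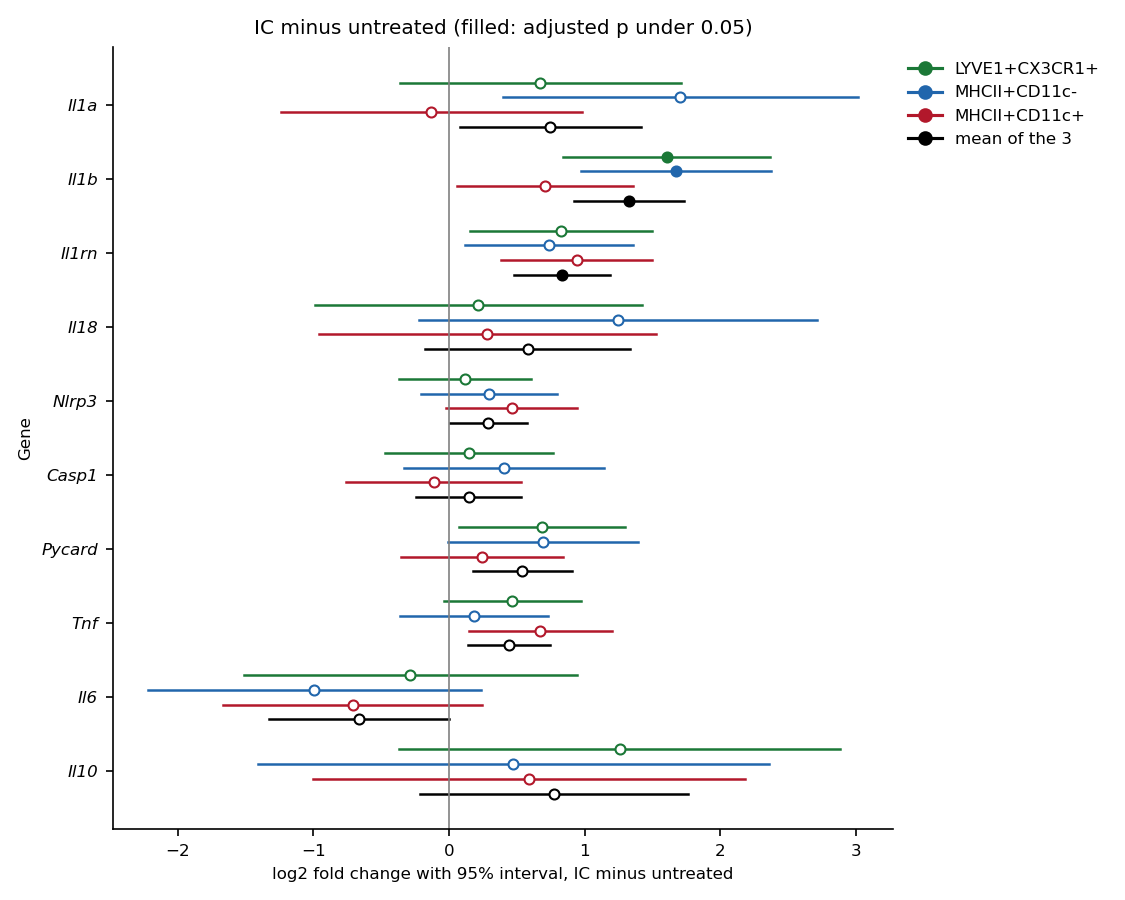
Log2 fold change after IC (horizontal axis, IC minus untreated) for each gene (vertical axis), with the 95% interval of the edgeR fit as a line. Colours give the 3 subsets, black gives their mean, and filled points have an adjusted p under 0.05. The mean changes of Il1b (1.33) and Il1rn (0.83) are filled, and Il6 lies left of 0.

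Group means were higher after IC in 9 of 10 genes in LYVE1+CX3CR1+ macrophages, 9 of 10 in MHCII+CD11c- macrophages and 7 of 10 in MHCII+CD11c+ macrophages, and most of these differences did not pass the test. The median mean change of the 10 genes was 0.56, beside -0.015 over all genes tested. The treated and untreated libraries of these subsets did not overlap for 2, 3 and 5 of the 10 genes, beside 19.1%, 14.2% and 18.5% of all genes tested.

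The response to IC was also compared between subsets. The Il1b response of LYVE1+CX3CR1+ macrophages differed from that of MHCII+CD11c- macrophages by -0.07 (95% interval -1.14 to 1.01) and from that of MHCII+CD11c+ macrophages by 0.90 (95% interval -0.10 to 1.90). The response of MHCII+CD11c+ macrophages was below that of MHCII+CD11c- macrophages by -0.97 (95% interval -1.91 to -0.02, edgeR adjusted p = 0.813). For Il1rn the 3 differences were 0.09, -0.12 and 0.20, each with an interval that included 0. In these comparisons 0 of the 10 genes passed by edgeR and 0 by DESeq2, where edgeR passed 0, 0.00948% and 0.00948% of all genes tested. At an unadjusted p under 0.05, 0, 0 and 2 of the 10 genes passed, beside 6.52%, 4.49% and 6.09% of all genes, the last pair being Il1a and Il1b.

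Markers of other cells differed between the groups. The sum of 12 neutrophil markers (CPM, lowest, median and highest library) was 921, 943 and 2115 in untreated and 1563, 1802 and 4544 in treated MHCII+CD11c- macrophages. In MHCII+CD11c+ macrophages it was 129, 301 and 829 untreated and 1120, 1719 and 2507 treated. In LYVE1+CX3CR1+ macrophages it was 18.9, 21.3 and 24.8 untreated and 19.2, 29.3 and 183 treated, with 6 of the 12 genes at 0 in all untreated libraries. Averaged over the subsets, S100a8 and S100a9, the genes of a neutrophil and monocyte calcium-binding complex, were higher after IC by 3.62 (edgeR adjusted p = 0.00557) and 3.02 (edgeR adjusted p = 0.00344). Among the 9 monocyte markers Chil3 (3.46), Plac8 (2.63) and Ly6c2 (2.52) were also higher on average, but they do not stand for the whole list. The median sum of that list was 4107 CPM untreated and 4604 CPM treated in MHCII+CD11c- macrophages. It was 3847 and 3786 CPM in MHCII+CD11c+ and 4663 and 4619 CPM in LYVE1+CX3CR1+ macrophages. Neutrophils and monocytes also make Il1b and Il1rn, and the part of these cells in the levels was not tested. In bulk libraries, fewer cells of a type and less RNA per cell cannot be told apart.

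Library by library the order of the marker sum was that of Il1b in some groups and not in others. In the LYVE1+CX3CR1+ IC libraries the marker sums were 19.2, 183 and 29.3 CPM and Il1b was at 119.5, 42.7 and 87.4 CPM, so that the library with the highest sum had the lowest Il1b. Without it the Il1b change in LYVE1+CX3CR1+ macrophages was 1.92 (edgeR adjusted p = 0.0176). In untreated LYVE1+CX3CR1+ libraries the sums were 18.9, 21.3 and 24.8 CPM and Il1b was at 23.6, 15 and 42.0 CPM. In untreated MHCII+CD11c+ macrophages the sums were 829, 129 and 301 CPM and Il1b was at 270.0, 335 and 401 CPM. In MHCII+CD11c+ IC libraries the sums were 1120, 1719 and 2507 CPM and Il1b was at 457, 472 and 707 CPM, in the same order. In MHCII+CD11c- macrophages the sums were 2115, 943 and 921 CPM untreated, with Il1b at 159, 179.7 and 105 CPM, and 1802, 1563 and 4544 CPM after IC, with Il1b at 612, 229.7 and 545 CPM. The lowest sum and the lowest Il1b were in the same library in both of these groups, and the highest were not. The marker sums of the untreated MHCII+CD11c+ libraries all lay below those of the MHCII+CD11c- libraries, while their Il1b lay above.

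**Figure D4:**
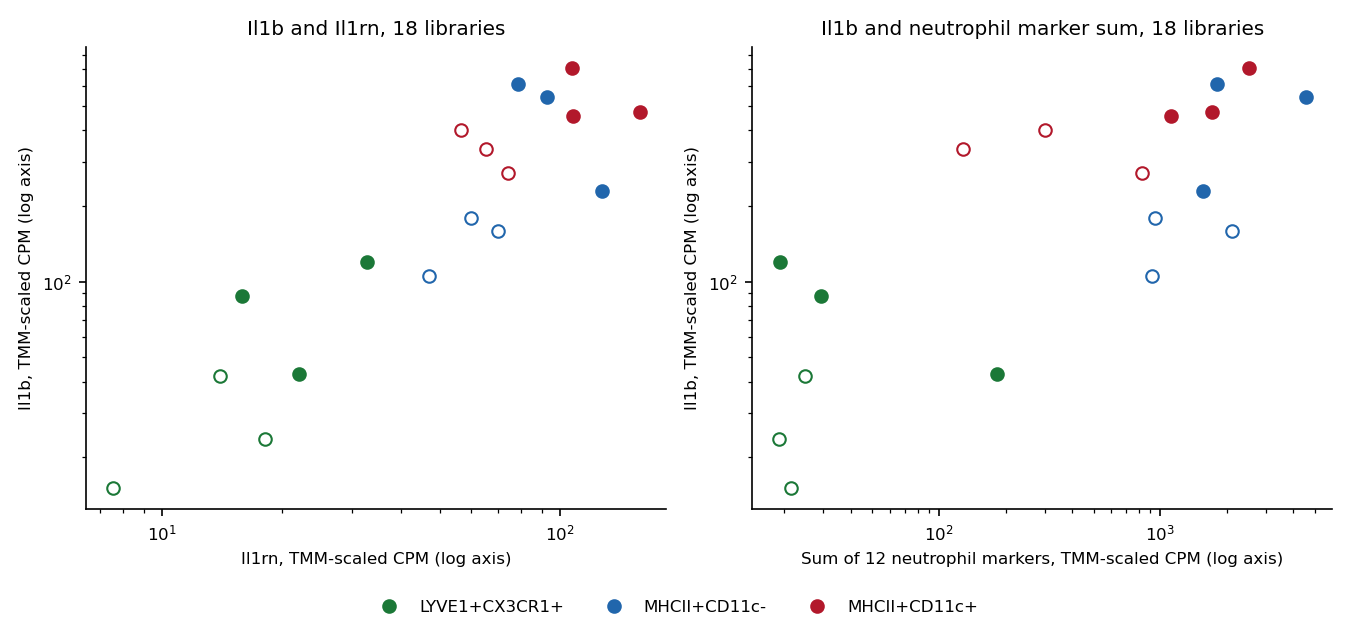
Il1b in TMM-scaled CPM (vertical axes, log scale) against Il1rn (left, log scale) and against the summed level of 12 neutrophil markers (right, log scale), 1 point per library, coloured by subset, open untreated and filled IC. Il1b and Il1rn rise together over the 18 libraries (r = 0.903), while the LYVE1+CX3CR1+ libraries span 15 to 119.5 CPM of Il1b, and 5 of these 6 have marker sums of 18.9 to 29.3 CPM.

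Dendritic cell markers, 9 genes, stood in the order of untreated Il1b. They summed to at most 15.04 CPM in LYVE1+CX3CR1+, 157 to 172 CPM in MHCII+CD11c- and 317 to 489 CPM in MHCII+CD11c+ libraries without treatment. After IC they summed to 3.16 to 3.95, 62.8 to 119 and 292 to 339 CPM in the same order. B cell markers, 6 genes, summed to at most 2.11 CPM in LYVE1+CX3CR1+, 204 to 354 CPM in MHCII+CD11c- and 62.5 to 94.5 CPM in MHCII+CD11c+ libraries over both treatments. The part of these cells in the subset differences of Il1b, Il1rn and Il6 was not tested.

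Mast cell markers, 7 genes, summed to 6.11 to 214 CPM in untreated and 118 to 505 CPM in treated MHCII+CD11c- libraries. In MHCII+CD11c+ libraries they summed to 8.41 to 86.1 CPM untreated and 46.3 to 271 CPM treated, and in LYVE1+CX3CR1+ libraries to 0 to 53.3 CPM. Fibroblast markers, 10 genes, summed to 648 CPM in the first untreated LYVE1+CX3CR1+ library, against 33.2 and 31.2 CPM in the others of that group. The part of these cells in the levels was not tested. The 24 measured genes of the response to tissue digestion, which can switch on cytokine genes such as Tnf and Il1b during preparation, summed to 22373 to 34003 CPM over the 18 libraries. On average over the subsets 4 of these genes were higher after IC and 2 lower, where 6.21% of all genes tested passed (3.12% higher). The heat shock genes Hspa1b (0.82), Hsph1 (0.76) and Hspa1a (0.73) were higher and the antiproliferative gene Btg2 was lower (-0.68). In untreated LYVE1+CX3CR1+ against MHCII+CD11c- macrophages 8 genes of this list were lower and 1 higher, where 11.4% of all genes tested passed (7.12% lower). Among them, Ier5 (-1.13), Egr3 (-1.03) and Egr2 (-1.02) were lower and Cyr61 (1.95) was higher. The part of the genes of this list in the levels of Il1b, Tnf and Il6 was not tested.

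The receptors and signalling genes around these cytokines were read from fixed lists. In the IL-1 family list, with 17 genes tested, untreated LYVE1+CX3CR1+ macrophages had 5 genes lower and 1 higher than MHCII+CD11c+ macrophages, where 21.8% of all genes passed (12.4% lower), with a median of -0.08 beside -0.02 over all genes. The IL-33 receptor Il1rl1 was lower by -3.35, at 4.04 to 19.4 CPM against 87.7 to 113 CPM. The decoy receptor Il1r2 had 0 counts in the 3 LYVE1+CX3CR1+ libraries and 1.31 to 5.79 CPM in the MHCII+CD11c+ ones, the signalling receptor Il1r1 was at 0 to 1.35 against 5.25 to 18.4 CPM, and the IL-18 receptor subunit Il18rap at 0 to 2.02 against 9.98 to 17.1 CPM. Against MHCII+CD11c- macrophages 2 genes of that list were lower, Il1rl1 (-2.01) and Il1r1, where 7.12% of all genes were lower. After IC, averaged over the subsets, Il1r2 was higher by 3.11 (edgeR adjusted p = 0.0103) and Il1rl1 lower by -0.92 (edgeR adjusted p = 0.0203). Il1r2 is also a transcript of neutrophils.

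Of 23 other inflammasome genes tested, untreated LYVE1+CX3CR1+ macrophages had 4 lower and 3 higher than MHCII+CD11c+ macrophages (median -0.40; 21.8% of all genes passed), and 2 lower and 1 higher than MHCII+CD11c- macrophages (median -0.18; 11.4% passed). Mefv, the gene of the sensor pyrin, was lower in both, at 0 to 2.70 CPM in LYVE1+CX3CR1+, 5.11 to 26.7 CPM in MHCII+CD11c- and 35.2 to 66.1 CPM in MHCII+CD11c+ libraries. Gbp3, an interferon-induced GTPase, was at -1.55 and -1.06, and Nlrp1a (-2.52) and Nlrp1b (-1.45), genes of NLRP1 sensors, were lower against MHCII+CD11c+ macrophages. Nek7, the kinase that binds NLRP3, was higher by 0.67 against MHCII+CD11c- macrophages. After IC, MHCII+CD11c+ macrophages stood above LYVE1+CX3CR1+ macrophages in 6 genes of this list and below them in 3, where 19.7% of all genes passed. Averaged over the subsets, 2 of the 23 were lower after IC, Gbp3 (-0.51) and Txnip (-0.40), and 0 were higher, where 6.21% of all genes passed.

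In the NF-κB list, with 14 genes tested, untreated LYVE1+CX3CR1+ macrophages had 0 higher and 2 lower than MHCII+CD11c- macrophages, Nfkb2 (-0.96) and the inhibitor Nfkbie (-0.92), and 3 lower than MHCII+CD11c+ macrophages, among them Bcl3 (-1.11). The medians were -0.35 in each, and 7.12% and 12.4% of all genes were lower in these comparisons. Averaged over the subsets, 0 of the 14 genes passed after IC by edgeR, where 6.21% of all genes passed. At an unadjusted p under 0.05 it was 1 of the 14, beside 2001 of the 10550 genes tested. In the TNF list of 24 genes tested, the adaptor Traf1 was lower in untreated LYVE1+CX3CR1+ macrophages than in both MHCII+ subsets, at 0 to 3.23 CPM against 13.4 to 29.1 and 37.5 to 67.0 CPM, and the cell death regulator Cflar was higher by 0.62 and 1.21. On average Tnfaip2 (0.72) was higher after IC and Fadd (-1.38) and Map3k8 (-0.37) were lower, 3 of 24 genes beside 6.21% of all genes. In the IL-6 and IL-10 list of 16 genes tested, the IL-6 family cytokine Osm (0.62) was higher after IC. Sbno2 (-0.57), the shared receptor subunit Il6st (-0.54) and Socs3 (-0.42) were lower after IC. Il10rb was higher in untreated LYVE1+CX3CR1+ macrophages by 0.72 against MHCII+CD11c- macrophages.

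By Pearson correlation of log2 CPM over the 18 libraries, the genes nearest to Il1b were Pmaip1 (0.923), Sema4d (0.921) and Cfb (0.918), and those nearest to Il1rn were Fgl2 (0.945), Ccl6 (0.934) and Adrbk2 (0.932). For Il6 they were Cnn2 (0.924), Ptgir (0.913) and Ryr1 (0.895), for Tnf Sumo3 (0.882), Tsc22d3 (0.867) and Sqstm1 (0.857), for Nlrp3 Rsrp1 (0.852), Trem1 (0.837) and Sorl1 (0.837), and for Pycard Acot7 (0.905), Sdf2l1 (0.885) and Eif5a (0.883). Il1a (Tnfaip3, 0.725) and Casp1 (Commd1, 0.747) had the weakest nearest genes. The low counts of Il18 (Pfdn6, 0.886) and Il10 (Bet1, 0.836) make theirs uncertain. These values describe libraries that share subset, treatment and depth.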

How the data were processed

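Synovial macrophage RNA was made into stranded total RNA libraries with a pico-input kit and sequenced in pairs. Per the submitters' processing notes and the study's methods, the authors used Trim Galore for trimming, HISAT2 for alignment (mm10) and featureCounts for counting, and deposited raw counts per gene symbol. Versions, annotation and strand setting are not given in the sources used here. A combined table held the same counts and was not used.

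Genes passing filterByExpr (minimum count 10, minimum total 15; 10550 of 17957 with counts) were fitted on all 18 libraries and 6 groups with edgeR's quasi-likelihood test (4.0.16, R 4.3.3) after TMM scaling, with Benjamini-Hochberg adjustment over all genes and a threshold of 0.05. On simulated IC changes in LYVE1+CX3CR1+ macrophages it called 32 of 100 2-fold and 77 of 100 4-fold changes over 10248 genes, with 6 of 115 calls false. Replicates of a group differed by more than counting noise. Per the study the untreated libraries of a subset came from different mice. The labels do not say this of the IC libraries, so p-values measure the spread between these libraries, which may in part be technical. Log2 CPM used a prior count of 2. The floor is 3 counts, for counting error only. Alternatives were DESeq2 (1.42.0), its size factors, no filter, only the compared libraries, 1 surrogate variable (sva 3.50.0), replicate blocks and leaving out each library. Exon lengths came from GENCODE release 21.

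All 10 members were named. From each list up to 4 genes past the threshold with the largest change were named per comparison, and for each member the 3 genes with the highest correlation. Members and lists were chosen with earlier results of these data known. Ly6g, Trac, Il36g and other listed symbols were not analysed here. A gene of the IL-6 and IL-10 list is not reported here.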

Additional observations from a re-analysis of the deposited data

How the results depend on the processing

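For MHCII+CD11c+ against MHCII+CD11c- macrophages without treatment, where 1 of the 10 genes passed, DESeq2 passed 0, no filter on low counts 3, only the compared libraries 2, 1 surrogate variable 2 and the replicate block within treatment 2, and leaving out a library gave 0 to 2. Over all genes that comparison passed 368, against 541 by DESeq2, 578 with no filter, 431 with only the compared libraries and 587 with 1 surrogate variable. After IC the same comparison gave 1 with no filter, against 0. For IC in MHCII+CD11c+ macrophages, no filter gave 2 and only the compared libraries 1, against 0. For the mean IC effect, no filter gave 4, against 2. Leaving out a library gave 3 to 5 for LYVE1+CX3CR1+ against MHCII+CD11c- and 3 to 5 against MHCII+CD11c+ macrophages without treatment, 3 and 3 to 4 after IC, 0 to 1 for IC in LYVE1+CX3CR1+, 0 to 2 in MHCII+CD11c- and 2 to 3 for the mean, and 0 elsewhere. Of the alternative values of the 35 pairs of gene and comparison that passed in at least 1 fit, 459 kept their side of the threshold, 26 passed it newly and 24 lost it, and none changed direction, while pairs that passed in no fit did so in some, such as Il1b between the MHCII+ subsets after IC (0.22, lowest -0.06). Libraries of the same number and treatment deviated from their group means with correlations between -0.05 and 0.13 (mean 0.05, 1 of 18 above 0.1). For different numbers in the same treatment the correlations lay between -0.13 and 0.08 (mean -0.02). The labels do not name the numbers as pairs, so pairing entered only as an alternative, and whether subsets shared mice was not tested. With the replicate block within treatment, MHCII+CD11c+ against MHCII+CD11c- macrophages without treatment passed 472 genes, against 368. The block on the title's number gave 4, 5, 1, 3, 4, 0, 1, 1, 0 and 3 genes for the subset comparisons and then the IC comparisons. The causes were not tested. The depth of the shallow MHCII+CD11c- IC libraries limits what can be read from Il10, Il18, Il1a and Il6 there.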
